A study of Magallana angulata with 8 samples.

Results

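The table of gene expression levels held 13 genes, of 25647, whose annotation names an excitatory amino acid transporter (EAAT). Every gene with these words in the text of its best protein match was taken, and 8 of the 13 had a mean level of at least 1 RPKM. RPKM stands for reads per kilobase of gene model, scaled to a total of reads for the library. The family was picked for 1 of its genes, OYG_10017841_10008053, annotated as EAAT 1, with its high-Cu and low-Cu gill values already known, so its gill values, and its comparisons between exposures and between tissues, which use them, are given as a description with no test. The gene names come from protein matches and carry the numbers of the vertebrate family, and the evolutionary relations behind them were not examined.

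The libraries were made by digital gene expression (DGE) profiling of adult Fujian oysters, Crassostrea angulata, about 9 months old and of a cultured stock. Gills (G) and mantles (M) came from a collection without Cu exposure (numbered 1) or from a collection kept in 30 µg/L Cu for 30 days (numbered 2), and within each of these the tissue of 6 oysters with low Cu (L) or of 6 oysters with high Cu (H) was pooled into 1 library. Oysters numbered 1 were dissected without a stay in tanks. Those numbered 2 were first acclimated in tanks, then kept in filtered seawater with Cu and fed Chlorella powder. Cu class and tissue are given by the library labels, while exposure, dose and pool size are given by the methods of the study, which picked the 6 from 60 oysters by measured Cu. Each pool was sequenced as 1 library, so the spread within a pool is unknown and p-values measure only the spread between these 8 libraries. Exposure cannot be told apart from the collection of oysters or from the keeping and feeding in tanks.

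EAATs are carriers of the SLC1 family. They use the sodium gradient to take up glutamate and aspartate, and in mammals they end the excitatory signal of glutamate, EAAT 1 and EAAT 2 mainly in glia and EAAT 3 in neurons and in epithelia of kidney and gut. Glutamate is a transmitter in the nervous system of molluscs, and free amino acids are also osmolytes in the cells of marine bivalves, whose gills can take up dissolved amino acids from seawater.

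The RPKM values rest on between 2015375 and 2589524 reads per library, recovered from their steps. These totals are below the numbers of mapped reads that the study reports, so they are not the full depth of the libraries. The labelled tissues were checked against marker genes. The summed RPKM of 49 genes of cilia, which cover the gill, was 3421 to 5039 in the gills and 1185 to 1446 in the mantles, and that of 11 muscle genes was 1204 to 1815 in the gills and 3331 to 6222 in the mantles. For 60 genes of shell-forming epithelium the sums overlapped, at 673 to 839 in the gills and 716 to 2226 in the mantles. The leading gene of that list, a putative tyrosinase-like protein (OYG_10012743_10004554), stood at 0.622 to 17.1 in the gills and 91.4 to 394 in the mantles. That gene was taken for its highest mean in the mantles, which favours such a difference, so it is no check of the tissue. The low-Cu mantle library after exposure, M2-L, stood apart from the others. The median gene that passed the filter was at 2.84 in M2-L, against 3.25 to 3.44 in the other libraries, on the scale of log2(RPKM + 0.1). The median over genes of the high minus low Cu difference was 0.32 (log2) in M2, 0.04 in G1, 0.10 in G2 and 0.03 in M1.

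Together the 13 genes took between 279 and 1397 of every 1000000 recovered reads. The sum was highest in G2-L, at 1397, and next highest in M2-L, at 933, while the other 6 libraries lay between 279 and 512. Most of these reads came from a few genes, since the 4 members with the highest mean RPKM held between 84.5% and 99.7% of the reads of the family in each library. OYG_10017841_10008053 alone took 71.2% of the family's reads in G2-L and 58.0% in M2-L, then 29.2% in G1-L, and between 5.12% and 8.88% in the remaining libraries. Where this gene was low, the gene annotated as EAAT 3, OYG_10013151_10017921, or an EAAT 2 gene, OYG_10012016_10036269, held the largest share. Because these are bulk tissues, fewer cells of a type and less RNA per cell cannot be told apart.

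**Figure D1:**
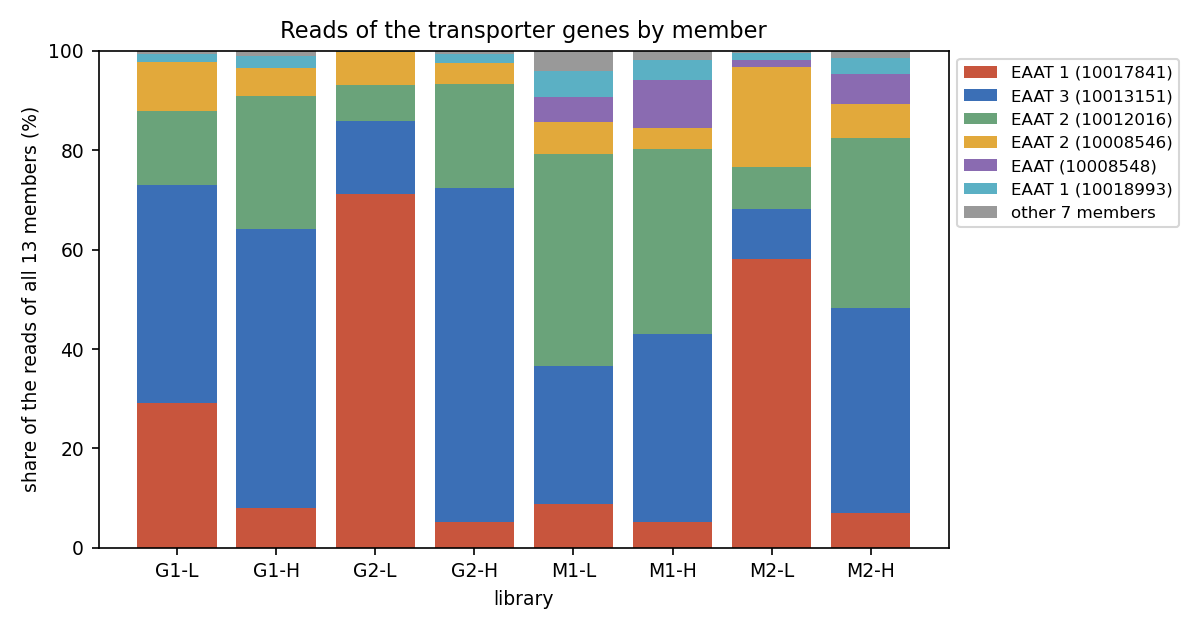
Share of the reads of all 13 transporter genes taken by each member in each library (y axis, percent; x axis, library; each bar sums to 100). OYG_10017841_10008053 held 71.2% in G2-L and 58.0% in M2-L, and under 30% in every other library.

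OYG_10017841_10008053, the EAAT 1 gene with a recovered coding length of 1530 bases, was high in the low-Cu libraries of the exposed oysters in both tissues. In the gills its RPKM was 63.5 in G1-L and 650.3 in G2-L at low Cu, while G1-H had 14.6 and G2-H had 16.4. In the mantles it was 20.1 in M1-L and 354 in M2-L at low Cu, and 17.1 in M1-H and 19.1 in M2-H at high Cu. The 2 highest libraries were thus the gill and the mantle library that carry the same number and Cu class in the labels, G1-L came next, and the 4 high-Cu libraries and M1-L lay between 14.6 and 20.1. G2-L was 10.2 times the next gill library and M2-L was 17.6 times the next mantle library. As the study describes them, the gills and mantles of a given number and Cu class came from the same 6 oysters, so the 2 high values are not independent repeats.

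This gene was chosen on its gill values, and the mantles came from the same oysters as the gills. The mantle values are therefore not independent of that choice. In the mantles the difference between high and low Cu rested on the exposed pair. In M2 its level was 18.5-fold lower in the high-Cu library (1243 against 71 reads, 95% interval of the ratio 0.0419 to 0.0687), and 304 of the 20123 genes that passed the filter, itself included, had a change as far down or further. In M1 the ratio was 0.852 (62 and 59 reads, interval 0.586 to 1.24), so no difference was detectable at this depth without exposure. Intervals of ratios are exact Clopper-Pearson intervals and cover counting error only. Over both mantle pairs the log2 difference was -2.22 (standard error 1.05, limma adjusted p = 0.444), and it was -0.23 without the M2 pair and -4.20 without the M1 pair. The mantle values thus did not pass the test, and the M1 interval lay wholly above the M2 interval. That fit took its spread from the gill and mantle libraries together, so it is not a test apart from the gill values.

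The same 2 libraries set the comparison of exposed with unexposed oysters, which uses the gill values and is a description with no test. Among low-Cu libraries the level of OYG_10017841_10008053 was 10.2-fold higher in the exposed gills (interval 8.87 to 11.9) and 17.6-fold higher in the exposed mantles (13.6 to 23.1). Among high-Cu libraries the ratio was 1.13 in the gills (0.769 to 1.65) and 1.12 in the mantles (0.780 to 1.61). The exposed and unexposed high-Cu libraries therefore did not differ beyond counting error, and the low-Cu ones did. The log2 difference was 1.95 with both Cu classes together, 3.74 in the low-Cu libraries alone and 0.16 in the high-Cu libraries alone. Between tissues the mantle minus gill log2 difference was -0.52, also given with no test.

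A gene annotated as EAAT 2, OYG_10008546_10006098 (coding length 1500 bases), had its highest levels in the same 2 libraries. Its RPKM in the low-Cu gills was 21.8 in G1-L and 61.8 in G2-L, and in the high-Cu gills 10.6 in G1-H and 13.1 in G2-H, on 37 to 228 reads. Its RPKM in the low-Cu mantles was 14.9 in M1-L and 125 in M2-L, and in the high-Cu mantles 14.5 in M1-H and 19.0 in M2-H, on 45 to 431 reads. Both low-Cu gill libraries lay above both high-Cu ones, while in the mantles M1-L lay among the high-Cu libraries. G2-L was 2.83 times the next gill library and M2-L was 6.60 times the next mantle library, and for this gene, unlike OYG_10017841_10008053, the mantle peak was above the gill peak.

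**Figure D2:**
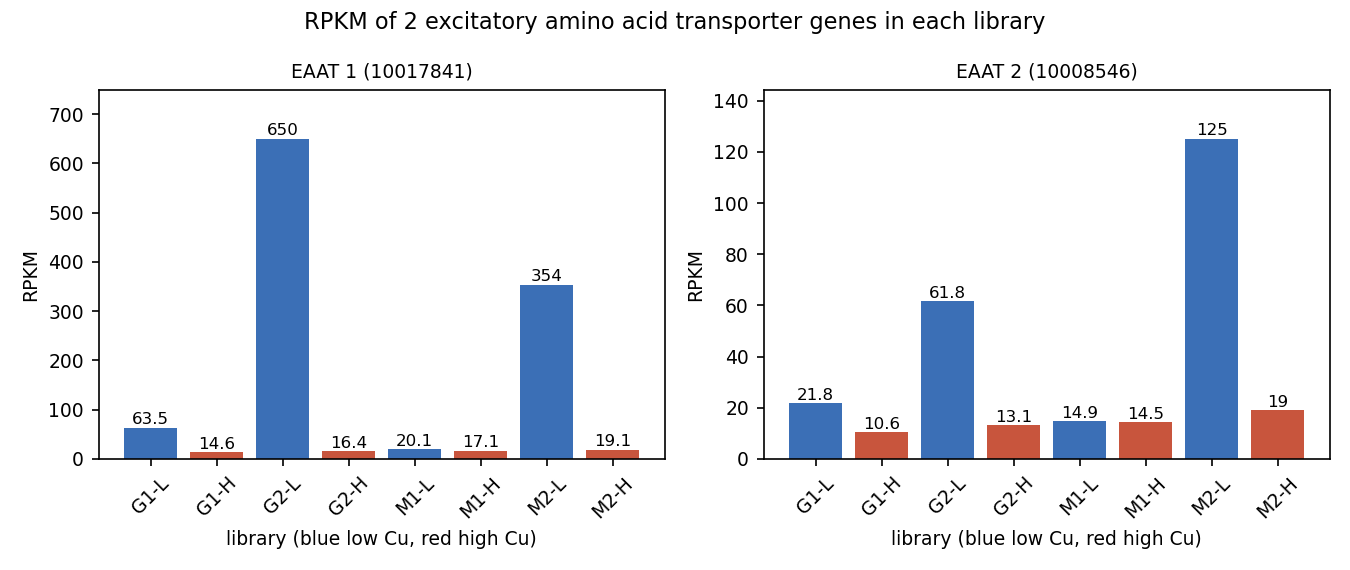
RPKM (y axis, linear and with its own scale in each panel) of OYG_10017841_10008053 and OYG_10008546_10006098 in each library (x axis; blue, low Cu; red, high Cu; 1 library per bar). In both panels G2-L and M2-L are the 2 highest bars, at 650.3 and 354 on the left and at 61.8 and 125 on the right.

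In the gill pairs OYG_10008546_10006098 was 2.06-fold lower in G1-H than in G1-L (interval of the ratio 0.316 to 0.736) and 4.70-fold lower in G2-H than in G2-L (0.154 to 0.289). Over both pairs the gill log2 difference was -1.63 (standard error 0.66) with an unadjusted p-value from limma of 0.0475 and an adjusted one of 0.972, so it did not pass. In M2 the high-Cu library was 6.60-fold lower (0.116 to 0.196) and in M1 the ratio was 0.975 (0.637 to 1.49). The mantle log2 difference was -1.38 (limma adjusted p = 0.448), and -0.04 without M2. Exposed minus unexposed, the log2 difference was 1.31 (standard error 0.46, limma adjusted p = 0.337). A further EAAT 2 gene, OYG_10008547_10011606, has the same best protein match and had 1 read over all libraries. How reads that fit both genes were counted is not known here, which leaves the level of OYG_10008546_10006098 uncertain to that extent.

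Such a peak in both low-Cu libraries of the exposed oysters was found in few genes. A rule chosen after these values had been seen asked for a level in G2-L and in M2-L at least 2-fold above every other library of the same tissue. It was met by 2 of the 8 members, the 2 genes above, and by 1.04% of all genes that passed the filter (210 of 20123). With 10-fold in place of 2-fold, 1 member met it, OYG_10017841_10008053, among 0.0497% of genes (10 genes). These shares describe the table, and since the rule followed the values nothing is tested by them. Of the 31 genes on a list of neuronal markers, summed RPKM was 509 to 720 in the gills and 458 to 651 in the mantles, with the highest sums in G2-L and M2-L. The leading gene of that list, taken for its highest mean in the mantles, was synaptotagmin-15 (OYG_10018135_10040847). In the gills it stood at 80.8 in G1-L and 121 in G2-L, and at 14.2 and 8.75 at high Cu. In the mantles it stood at 34.0 in M1-L and 282 in M2-L, and at 37.7 and 18.1 at high Cu. That choice favours a gene with a high mantle library, so nothing is read from its M2-L value. Without synaptotagmin-15 the sum was 599.5 in G2-L, still the highest of the gills, and 369 in M2-L, then the lowest of the mantles. The part of neuronal content in the transporter values was not tested.

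The gene annotated as EAAT 3, OYG_10013151_10017921 (1581 bases), had a different pattern and a narrower range. At low Cu its RPKM in the gills was 92.3 in G1-L and 129 in G2-L, and at high Cu 99.1 in G1-H and 202 in G2-H. At low Cu its RPKM in the mantles was 60.6 in M1-L and 59.8 in M2-L, and at high Cu 123 in M1-H and 108 in M2-H. The reads behind these values numbered 193 to 828. The high-Cu library was the higher one in all 4 pairs, which held for 1 of the 8 members and for 15.3% of all genes that passed, and both high-Cu mantles lay above both low-Cu mantles. The ratio of high to low was 1.07 in G1 (interval 0.919 to 1.26) and 1.57 in G2 (1.40 to 1.76). In the mantle it was 2.03 in M1 (1.71 to 2.41) and 1.80 in M2 (1.52 to 2.13), so the difference exceeded counting error in 3 of 4 pairs. The mantle log2 difference was 0.93 (standard error 0.26, unadjusted p = 0.0105 and adjusted p = 0.364 from limma) and the gill one was 0.38 (limma adjusted p = 0.972). With each library centred on its median the 4 differences kept their sign, at log2 values of 0.06 (G1), 0.52 (G2), 1.01 (M1) and 0.38 (M2).

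OYG_10012016_10036269, also annotated as EAAT 2 and the longest member with 2388 bases, was the third of the abundant genes. Its RPKM stood at 20.8 in G1-L and 42.4 in G2-L, while G1-H had 31.3 and G2-H had 41.6. In the low-Cu mantles it had 61.9 in M1-L and 32.7 in M2-L, and in the high-Cu mantles 79.6 in M1-H and 59.0 in M2-H, on 102 to 428 reads over all libraries. Of the mantle libraries only M2-L lay within the range of the gills. The mantle minus gill log2 difference was 0.76 (standard error 0.34, limma adjusted p = 0.194). The gene was thus not called, and 13 of 14 alternative settings gave no call either. Without the low-Cu exposed pool, G2-L and M2-L, it was 1.14 and passed (limma adjusted p = 0.0379). With a different pool left out the limma adjusted p was 0.331 to 0.463. High minus low Cu, the log2 difference was 0.28 in the gills (limma adjusted p = 0.972) and 0.61 in the mantle (limma adjusted p = 0.464).

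OYG_10013151_10017921 and OYG_10012016_10036269 shared 1 feature across exposure. In both genes the exposed library was above its unexposed partner in both gill comparisons and below it in both mantle comparisons, a pattern of 2 of the 8 members and of 7.73% of all genes that passed. For OYG_10012016_10036269 the log2 differences were 1.02 (low Cu) and 0.41 (high Cu) in the gills and -0.92 and -0.43 in the mantle. The difference between tissues, added as an interaction term after the data had been seen, was -1.39 (standard error 0.43, unadjusted p = 0.0177 and adjusted p = 0.742 from limma). For OYG_10013151_10017921 the values were 0.48 and 1.03 in the gills and -0.02 and -0.19 in the mantle, with a difference of -0.86 (limma adjusted p = 0.742). Neither passed over all genes, and 2 of the 4 mantle values were within a log2 of 0.2 of no change. Less the median over all genes between the same 2 libraries, the low-Cu mantle value of OYG_10013151_10017921 was 0.24. Its sign there thus depended on the scaling, and the pattern holds for this gene only on the values as deposited.

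**Figure D3:**
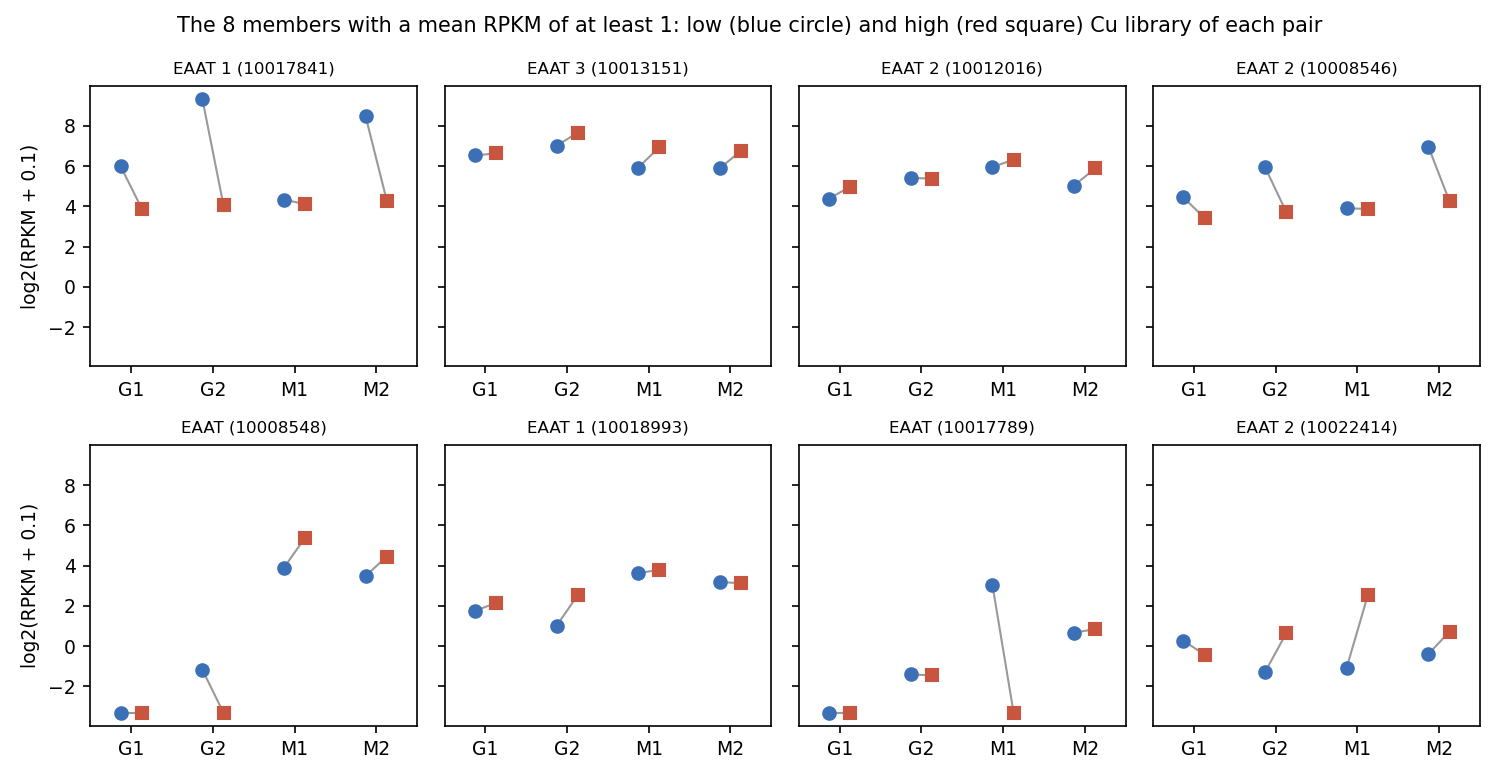
Level of the 8 members with a mean RPKM of at least 1 in the low-Cu (blue circle) and high-Cu (red square) library of each pair (x axis; y axis, log2(RPKM + 0.1), the same in all panels). OYG_10017841_10008053 and OYG_10008546_10006098 are lower at high Cu in both G2 and M2, whereas OYG_10008548_10011607 is near the bottom in the gills and at 11.1 to 41.9 RPKM in the mantles.

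Between tissues, 2 of the 7 members tested passed, both higher in the mantle, against 14.8% of all genes that passed the filter (5.67% higher and 9.18% lower in the mantle, and 29.1% under an unadjusted p-value of 0.05). The first was OYG_10008548_10011607, annotated as EAAT with no number and with a coding length of 1176 bases. It had 0 reads in G1-L, G1-H and G2-H and 1 read in G2-L, whereas the mantle libraries held 35 reads in M1-L and 30 in M2-L at low Cu, and 111 in M1-H and 62 in M2-H at high Cu. In RPKM the mantle levels were 14.8, 11.1, 41.9 and 21.7 in that order, and no gill library came near them. Against a floor of 3 reads per gill library, the level was at least 11.9-fold higher in M1-L, at least 38.3-fold higher in M1-H and at least 22.1-fold higher in M2-H than in the gill library of the same number and Cu class. Over all libraries, 238 mantle reads stood against 1 gill read, and the interval of the ratio was 44.4 to 9906. The limma log2 difference of 7.09 has a size that the pseudocount sets. This gene passed the filter on low values through its mantle libraries alone and so had to differ, and nothing is read from its place in the count, but with no filter on low values it was also called (limma adjusted p = 0.00566).

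Within the mantle, OYG_10008548_10011607 was at a ratio of high to low Cu of 2.84 in M1 (interval 1.93 to 4.28) and of 1.96 in M2 (1.25 to 3.13). The log2 difference over both pairs was 1.23 (standard error 0.97, limma adjusted p = 0.610). Its identifier follows that of OYG_10008546_10006098 and OYG_10008547_10011606 in the first number, but the levels of OYG_10008546_10006098 and OYG_10008548_10011607 had a correlation of only 0.18 over the 8 libraries on the log2 scale. The table gives no positions, so whether these genes lie side by side is not known here.

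The second gene was OYG_10018993_10021335, annotated as EAAT 1 like OYG_10017841_10008053 but with a different pattern (1494 bases). Its RPKM was 3.27 in G1-L, 1.90 in G2-L, 4.31 in G1-H and 5.69 in G2-H, against 12.3 in M1-L, 9.04 in M2-L, 13.7 in M1-H and 8.56 in M2-H. All 4 mantle libraries lay above all 4 gill libraries, as for OYG_10008548_10011607 and for 6.99% of all genes that passed. On 54 gill reads and 145 mantle reads, the mantle was 2.98-fold higher (log2 difference 1.57, standard error 0.38, limma adjusted p = 0.0357). The call was lost when any 1 of the 4 pools was left out, with limma adjusted p-values of 0.0610 to 0.140, and in 3 other settings it fell just short, at 0.0501 to 0.0542. High minus low Cu, the log2 difference was 0.96 in the gills (limma adjusted p = 0.972) and 0.04 in the mantle (limma adjusted p = 0.988).

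The cilia and muscle markers named above differed between the same libraries, by ranges that did not overlap, and the part of tissue makeup in the 2 tissue differences was not tested. The tissue comparison gave no call for the other 3 abundant members that were tested. OYG_10013151_10017921 had a mantle minus gill log2 difference of -0.58 (limma adjusted p = 0.202) and OYG_10008546_10006098 of 0.36 (limma adjusted p = 0.459).

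The other 7 members had few reads. OYG_10017789_10009206, an EAAT with no number, had 24 reads in M1-L but 0 in M1-H, 5 and 6 reads in M2-L and M2-H, and 1 read each in G2-L and G2-H, with none in G1. It passed the filter through the mantle, mainly M1-L, so nothing is read from its difference between tissues. OYG_10022414_10006098, an EAAT 2 gene, had 17 reads and an RPKM of 5.68 in M1-H, and at most 5 reads in every other library. It was the 1 member of 8 at least 2-fold higher with high Cu in both mantle pairs, against 5.02% of all genes that passed. In M2 this rested on 5 against 2 reads (interval of the ratio 0.387 to 24.8). Its log2 difference of 2.37 (standard error 1.29) had a limma adjusted p of 0.483. As it passed the filter through the high M1-H value, nothing is read from its place in the count. The remaining 5 genes were under the filter, with 28 reads between them over all 8 libraries and at most 4 in any library. Among these is OYG_10013837_10025396, named after glt-6, a glutamate transporter gene of the nematode Caenorhabditis elegans. The other 4 are OYG_10013838_10025396, OYG_10017791_10009204, OYG_10008995_10002878 and OYG_10008547_10011606, which had 1 to 5 reads each in all.

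Counted over the family, no member passed the test of high against low Cu in either tissue. In the gills 0 of the 7 members tested passed in limma, and 1 had an unadjusted p-value under 0.05, against 0.00497% and 4.64% of all genes. In the mantle 0 of 8 passed and 1 was under 0.05 unadjusted, against 0% and 12.2%, and a limma voom fit on the recovered reads also called 0 in both tissues. By exposure 0 of the 7 members tested passed and 1 was under 0.05 unadjusted, OYG_10008546_10006098, against 0.00994% and 12.2%. By the size of the change alone, 2 of 8 members were at least 2-fold lower with high Cu in both gill pairs, the same 2 genes, and 0 were higher, where 3.13% of all genes were lower and 2.31% higher (5.44% in all). In both mantle pairs 1 of 8 was higher and 0 were lower, against 7.97% of all genes in either direction. That gene, OYG_10022414_10006098, passed the filter through its high M1-H value, so nothing is read from the mantle count. As OYG_10017841_10008053 was chosen on the gill contrast, nothing is read from the gill count.

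The genes whose pattern over the 8 libraries was most like that of OYG_10017841_10008053 were ranked by the correlation of log2(RPKM + 0.1) among 11108 genes with a range of at least 2 (log2). The 5 highest were OYG_10008415_10032447 (hypothetical protein, r = 0.99), OYG_10007657_10034068 (solute carrier family 23 member 2, r = 0.98), OYG_10004922_10037682 (hypothetical protein, r = 0.98), OYG_10009568_10011671 (hypothetical protein, r = 0.97) and OYG_10004252_10024271 (ankyrin-1, r = 0.96). Members of SLC23 carry ascorbate in mammals, and ankyrins tie membrane proteins to the cytoskeleton. OYG_10009568_10011671 had the widest range of the 5 on the log2 scale, from 3.14 RPKM in G2-H to 1495 in G2-L and 3489 in M2-L. OYG_10007657_10034068 went from 33.2 in G2-H to 250.2 in G2-L, and it was 145 in M2-L. OYG_10004922_10037682 had 1 read in G1-L, 30 in G2-L and 80 in M2-L and none in the other 5 libraries. These correlations are a description over 8 libraries that share 2 high values, and without G2-L and M2-L only 2 of the 5 stayed among the 5 most alike.

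**Figure D4:**
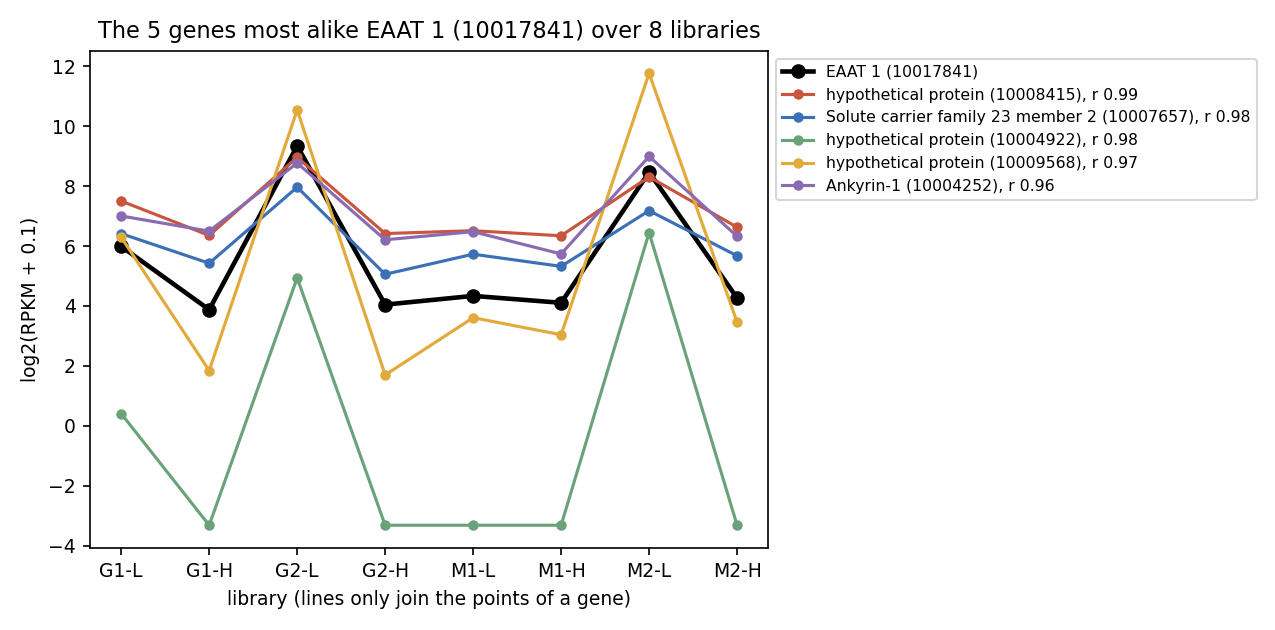
Levels (y axis, log2(RPKM + 0.1)) of OYG_10017841_10008053 (black) and of the 5 genes with the highest correlation to it, in each library (x axis, with lines that only join the points of a gene). All 6 genes peak in G2-L and M2-L, and r is 0.96 to 0.99.

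Among the other members, OYG_10008546_10006098 was nearest to OYG_10017841_10008053, with r = 0.93, which ranked 25 of 11108 genes. Without G2-L and M2-L its r was 0.80. The EAAT 3 gene OYG_10013151_10017921 had r = -0.23 and OYG_10012016_10036269 had r = -0.35 with OYG_10017841_10008053.

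Other genes of the glutamate pathway were counted by lists taken from their annotation. Metabotropic glutamate receptors, which act through G proteins, numbered 17, of which 15 passed the filter. In the mantle 6 of these 15 were at least 2-fold higher with high Cu in both pairs and none lower, where 5.02% and 2.95% of all genes were, and 4 of 15 with each library centred on its median or quantile normalized. The 6 include genes of few reads, named below, that passed the filter through their high-Cu libraries, so the count is only a description. Their median high minus low log2 difference was 0.98 in the mantle, against 0.18 over all genes, and 0.51 in the gills, against 0.10. With each library centred on its median these were 0.74 and 0.43. None of the 15 passed in limma in either tissue, and 6 in the mantle and 1 in the gills had an unadjusted p-value under 0.05, against 12.2% and 4.64% of all genes.

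The metabotropic receptor 3 gene OYG_10001665_10018914 was the most abundant of the named metabotropic receptors. Its RPKM was 12.5 in M1-L, 14.5 in M2-L and 44.6 in both high-Cu mantles, and in the gills 15.1 in G1-L, 32.1 in G2-L, 16.6 in G1-H and 56.1 in G2-H. Both high-Cu mantles were over 3 times both low-Cu mantles, with a log2 difference of 1.72 (standard error 0.33, limma adjusted p = 0.364). The metabotropic receptor 4 gene OYG_10003007_10036396 stood at 8.74 and 3.24 RPKM in the low-Cu mantles and at 23.8 and 16.9 in the high-Cu ones, with a log2 difference of 1.89 (standard error 0.43, limma adjusted p = 0.364). Metabotropic receptors 7 (OYG_10015130_10020787) and 8 (OYG_10005091_10031180) met the 2-fold rule on at most 13 and 5 reads in a library. Both passed the filter through their high-Cu libraries, which favours such a rise, so nothing is read from their change. A different metabotropic receptor 7 gene, OYG_10004207_10024181, was called between tissues, with a mantle minus gill log2 difference of -1.42 (limma adjusted p = 0.0330). It was the 1 gene called of the 15, where 14.8% of all genes were called.

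Ionotropic receptors, which are ion channels opened by glutamate, numbered 28, with 23 over the filter. Their median high minus low log2 difference was 0.41 in the mantle and 0.06 in the gills, and 0.17 and -0.03 with each library centred on its median, so that in the gills its sign depended on the scaling. One of the 23 was at least 2-fold higher in both mantle pairs, kainate receptor 1 (OYG_10000779_10023721), at 18.7 and 14.6 RPKM in the low-Cu mantles and 43.8 and 34.6 in the high-Cu ones (limma adjusted p = 0.364), and this count was 0 after centring. Kainate receptor 3 (OYG_10028189_10030159) was the only one lower by that size in both gill pairs, on 1 to 5 reads. Kainate receptor 2 (OYG_10006845_10023722) was called between tissues, at 35.5 to 41.9 RPKM in the gills and 18.2 to 26.1 in the mantles (log2 difference -0.83, limma adjusted p = 0.0415). This was 1 of the 23, where 14.8% of all genes were called.

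Of 17 genes listed by the words of their annotation as enzymes of glutamate synthesis or breakdown, 13 passed the filter. Between tissues 2 were called, both higher in the mantle, a share near the 14.8% of all genes. Glutamine synthetase (OYG_10015426_10040232), which turns glutamate into glutamine, was at 37.4 to 71.5 RPKM in the gills and 75.6 to 128 in the mantles (log2 difference 1.05, limma adjusted p = 0.0463). Glutamate decarboxylase-like protein 1 (OYG_10007861_10041513) was at 2.33 to 6.28 in the gills and 18.5 to 32.3 in the mantles (log2 difference 2.71, limma adjusted p = 0.00269). It is on the list by its name alone, and whether it acts on glutamate is not known here. In both enzyme genes all 4 mantle libraries lay above all 4 gill libraries, as in 6.99% of all genes that passed. For glutamine synthetase the gap was narrow, from 71.5 RPKM in the highest gill library to 75.6 in the lowest mantle library. None of the 8 vesicular and mitochondrial glutamate carriers, all over the filter, was called in any of the 4 comparisons. In a list of 10 neutral and acidic amino acid carriers of several families, 9 passed the filter and 1 was called. This gene, neutral amino acid transporter A (OYG_10017140_10002664), is in mammals a member of the same SLC1 family. It passed the filter through its mantle libraries alone, so nothing is read from the call. Its reads numbered 1 and 0 in the low-Cu gills, 3 and 1 in the high-Cu gills, 17 and 7 in the low-Cu mantles and 76 and 21 in the high-Cu mantles.

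**Figure D5:**
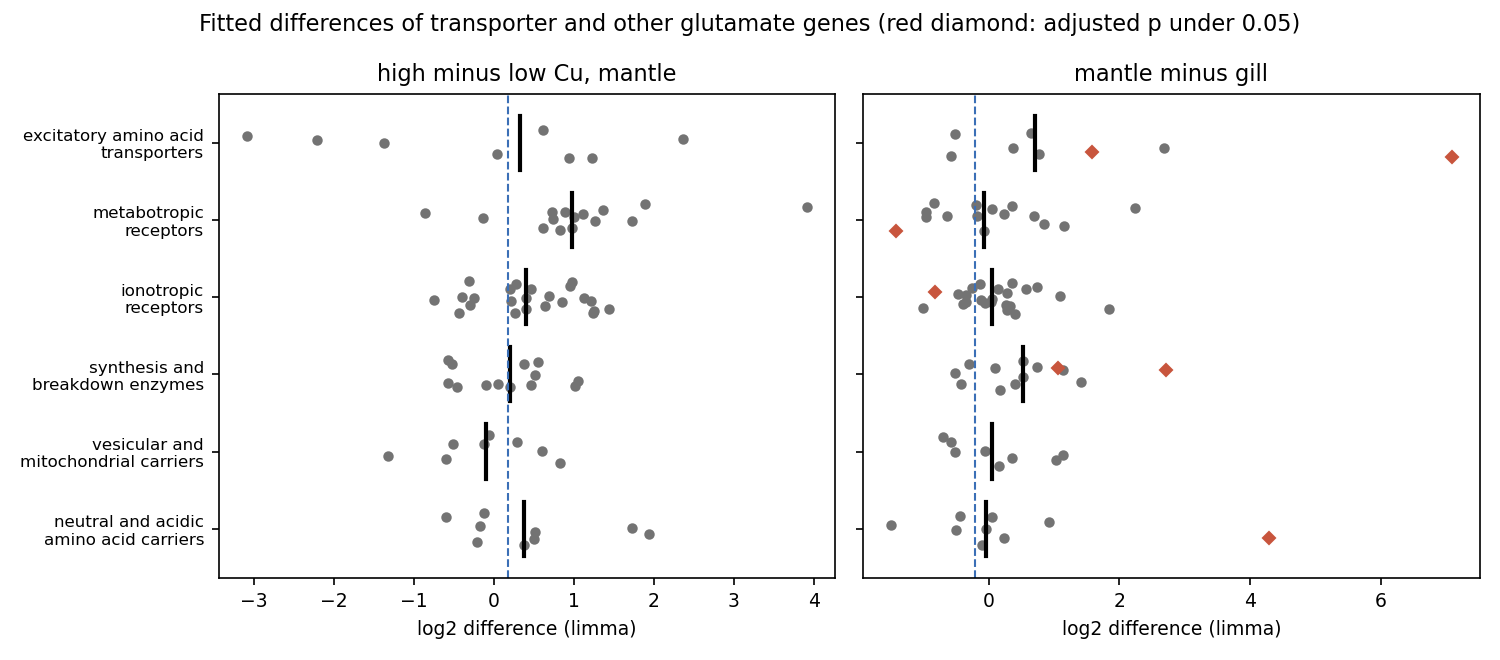
Fitted log2 differences (x axis) of single genes (points) of the transporters and of the 5 other lists (y axis), for high minus low Cu in the mantle and for mantle minus gill. Red diamonds are genes with a limma adjusted p under 0.05, black bars are list medians and the dashed line is the median of all genes; the median of the metabotropic receptors lies at 0.98 on the left, and the 2 transporters called on the right are at 1.57 and 7.09.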

How the data were processed

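The authors filtered the reads, mapped them to the Crassostrea gigas genome with TopHat allowing 1 mismatch, and deposited RPKM values per gene, in which a dash (taken as 0) stands for no reads. The submitters' processing notes also name Cufflinks. Fits used log2(RPKM + 0.1) and were limited to the 20123 genes, of 25647, whose RPKM averaged 1 or more. Changes of low genes are understated by the pseudocount.

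Linear models were fitted with limma 3.58.1 (R 4.3.3) with an intensity trend over all 8 libraries, with Benjamini-Hochberg adjustment across the genes fitted. High minus low Cu had separate effects for gill and mantle and the 4 pairs (G1, G2, M1, M2) as blocks. Mantle minus gill had the pool as a block and exposed minus unexposed had tissue by Cu class. The pairing follows the collections of the study's methods, and deviations of libraries with the same number correlated at 0.194 in the gills and 0.0904 in the mantle. OYG_10017841_10008053 was tested only in the mantle Cu comparison, whose spread came from the gill and mantle libraries together. Values in both pairs of a tissue were also compared with a 2-fold limit, after the study's intersection of pairs.

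Whole reads were recovered from the RPKM steps for 100% of the 25181 genes with any (tolerance 0.0001). They totalled 2015375 to 2589524 per library, fewer than the mapped reads that the study reports. Recovered gene lengths were multiples of 3 for 99.8% of genes and are called coding lengths. Ratios carry exact Clopper-Pearson 95% intervals, and a floor of 3 reads was used against libraries at 0.

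Genes named are every member, the 5 genes most alike OYG_10017841_10008053, the leading gene of a marker list, and, per glutamate list, up to 4 genes called or changed 2-fold in both pairs of a tissue. The leading gene had the highest mean RPKM in the gills for cilia and in the mantles for the other marker lists. OYG_10004207_10024181 was named outside the naming rule after its values were seen. The members and lists were chosen with earlier results of these data known. Alternatives were other pseudocounts, filters and scalings, no trend, other blocks, voom on recovered reads, each tissue alone, and pairs or pools left out. The interaction terms, the rule on G2-L and M2-L, and the scaled counts of the glutamate lists were added after the data had been seen. As 0 gene identifiers matched the RefSeq gene table, positions and sequences are not given. The steps were run on simulated data with a set change in the high-Cu gills and no other differences between pools, tissues or exposures. That run therefore does not show how the fits perform on these libraries. Other steps ran in Python 3.11.15 (scipy 1.17.1, numpy 2.4.6, matplotlib 3.10.9, pandas 2.3.3). Cu concentrations, qRT-PCR, interference and injections were not analysed here.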

Additional observations from a re-analysis of the deposited data

Results flagged for a closer look

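In 4 genes of the family a difference between 2 libraries had opposite signs in 2 groups, without exception among the libraries on the values as deposited. Groups held 2 libraries each, too few to ask whether a single library was far from the rest of its group.

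OYG_10017841_10008053 was lower in the mantle than in the gill among low-Cu pools (log2 differences -1.65 and -0.88) and slightly higher among high-Cu pools (0.23 and 0.22), which differ by 1.49. This difference was not tested, because it contains the gill comparison on which the gene was chosen, and the ratios of the high-Cu pools were within counting error.

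The differences between exposed and unexposed oysters were positive in both gill comparisons and negative in both mantle comparisons for OYG_10012016_10036269 and OYG_10013151_10017921. Mantle minus gill, they differed by -1.39 and -0.86 on the log2 scale. Neither interaction passed in limma over all genes (adjusted p = 0.742 for both). Less the median over all genes between the same 2 libraries, the low-Cu mantle value of OYG_10013151_10017921 was positive, at 0.24.

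OYG_10013837_10025396, under the filter on low values, had 0 and 1 reads in the low-Cu gills, 4 and 3 in the high-Cu gills, 1 and 3 in the low-Cu mantles and 1 and 2 in the high-Cu mantles. Its high minus low Cu difference was positive in both gill pairs and negative in both mantle pairs, and its mantle minus gill difference was positive at low and negative at high Cu. Both give -3.12 on the log2 scale, a size set by the pseudocount, and neither was tested.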

How the results depend on the processing

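The count of members called between tissues was 2, and 1 without the intensity trend, without the filter on low values and with a pseudocount of 0.01, and it ranged from 1 to 2 as each pool was left out. OYG_10008548_10011607, which passed that filter through the mantle alone, was called in each of these settings. The count of members changed 2-fold in both gill pairs was 2, and 1 with a log2 limit of 2, with a pseudocount of 1 and with an FDR limit of 0.001 (Fisher's exact test) added in both pairs, and 3 with no filter on low values, which adds OYG_10013837_10025396, a gene that was higher. In the mantle this count was 1, and 0 with a log2 limit of 2, with a pseudocount of 1, with each library centred on its median and with the Fisher criterion, and 2 with no filter. Of the 5 genes most alike OYG_10017841_10008053, 3 were kept with a pseudocount of 1, 1 by Spearman's rank correlation and 2 without G2-L and M2-L. The exposed minus unexposed log2 difference of OYG_10013151_10017921 was 0.33, and -0.10 in the mantle alone. That of OYG_10012016_10036269 was 0.02, and -0.68 in the mantle alone, -0.0151 after quantile normalization and -0.0104 without the low-Cu libraries. Without the replicate block, the counts of members called for high minus low Cu stayed 0 in both tissues, and with a replicate block by number only the tissue count stayed 2. No other call changed with the block. The causes of these moves were not tested. With 2 pairs a tissue, pools of 6 oysters in 1 library and 2 to 3 residual degrees of freedom, a p-value that misses the threshold does not show that values were alike, and members with under 30 reads were compared at low precision.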
